A study of Rattus norvegicus with 82 samples.

Results

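Oxidative phosphorylation is carried out in the inner mitochondrial membrane by 5 protein complexes. Complex I (NADH dehydrogenase) and complex II (succinate dehydrogenase) feed electrons to ubiquinone, complex III (the cytochrome bc complex) passes them to cytochrome c, and complex IV (cytochrome c oxidase) hands them to oxygen. Complexes I, III and IV pump protons, and complex V (ATP synthase) uses the proton gradient to make ATP. Heart muscle is packed with mitochondria and takes most of its ATP from this pathway. Nearly all subunits are encoded in the nucleus, and a few core subunits of complexes I, III, IV and V are encoded in mitochondrial DNA.

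The transcripts of these complexes were followed in rat hearts after tubulin-binding drugs. The genes were chosen by their symbols in the array's annotation: those starting with Nduf, Uqcr or Atp5 or with Cox4 to Cox8, plus Sdha to Sdhd, Cyc1 and Cycs. The rule found 87 of the 14217 gene symbols on the array, each read from the probe set with the highest mean intensity over the 82 arrays. Complex I held 35 of them, complex II held 4, complex III held 8, complex IV held 17 and complex V held 16. A further 7, the complex I assembly factors named Ndufaf and the gene Ndufa4l2, were kept apart as an assembly group. Ndufa4 stands with complex I by its prefix, although its protein is now placed in complex IV. Of the 87 genes, 85 passed the filter on dim probe sets, and Cox6b2 and Cox7b2, isoforms of complex IV subunits, did not. Cycs, which encodes cytochrome c, and Cox7a2 were found only on probe sets annotated to several symbols and therefore had no value of their own.

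The animals were male Wistar rats, strain Crl:Wi(Han), given 1 intravenous dose in 0.9% saline, and whole-heart RNA was read on Affymetrix 3′ expression arrays. Vinblastine (0.5 or 3 mg/kg) and vincristine (0.1 or 1 mg/kg) are vinca alkaloids, and colchicine (0.2 or 2 mg/kg) is a plant alkaloid. All of them bind tubulin and block microtubule assembly. Vehicle animals received 0.9% saline alone, and hearts were taken 6 or 24 h after the dose. Each of the 14 groups had 6 animals, except both vincristine 0.1 mg/kg groups, which had 5. The series asked about the cardiotoxicity of tubulin binders. All compounds at a given time were set against the same vehicle animals, and the doses of the compounds differ, so their values are given side by side without a test between compounds.

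Some arrays stood apart. The array medians of the deposited intensities lay between 57.6 and 63.3, and 10 of the 82 arrays lay nearer to the mean of another group than to their own, by a ratio of distances over 1.3. These included replicate 1 of colchicine 2 mg/kg at 24 h, which lay nearest to the colchicine 0.2 mg/kg hearts of that time, and replicate 1 of vinblastine 3 mg/kg at 6 h. The log2 ratio of 3′ to 5′ actin signal, a sign of RNA quality, had medians at 24 h of 0.83 for vinblastine 3 mg/kg, 0.88 for vincristine 1 mg/kg and 0.93 for colchicine 2 mg/kg, against 0.72 for vehicle. The same ratio for Gapdh had medians of 0.32, 0.36 and 0.31 in those treated groups, in that order, against 0.30 for vehicle. Single arrays lay further out. Replicate 4 of vinblastine 3 mg/kg at 24 h had 1.34 for actin and 0.73 for Gapdh, where vehicle hearts reached 0.83 and 0.36. At 6 h, replicate 6 of vinblastine 3 mg/kg had 1.18 and 0.66 and replicate 2 of colchicine 2 mg/kg 1.27 and 0.64. Vehicle hearts of that time reached 1.05 and 0.53. The part of RNA quality in the results below was not tested.

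The promoters of the genes chosen by symbol, whether or not their transcripts changed, were read for 3 motifs, using the 250 bases before each gene's start from RefSeq on GRCr8. A promoter was found for 78 of the 87 genes. The ETS motif CCGGAAG was present in 21 of them (26.9%), against 7.27% of all 33469 promoters. The motif made of GCGCA, any base and GCGC, bound by nuclear respiratory factor 1, was present in 12 (15.4%), against 3.75% of all. The motif AAGGTCA, bound by the oestrogen-related receptors, was present in 6 (7.69%), against 3.99% of all. Each motif was searched on both strands, and none of them contains another. A match describes the letters and says nothing of binding.

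Examples of the kinds of promoter in the set are shown 5′ to 3′ on the coding strand, which reads in the direction of the transcript. Motif matches are in capitals, and a match on the opposite strand appears as its reverse complement. Sdhd, the complex II gene with the smallest adjusted p, has an ETS match (chr8:59850642-59850891, minus strand). Ndufa11, an accessory subunit of complex I, has 2 matches to the nuclear respiratory factor motif (chr9:1637364-1637613, plus strand). Atp5mg, a subunit of the membrane part of ATP synthase, has an oestrogen-related receptor match and an ETS match (chr8:54130408-54130657, minus strand). Ndufb10, the complex I gene with the largest fall, has none of the 3 (chr10:14255967-14256216, minus strand). Atp5if1, a complex V gene with higher intensity, has none either (chr5:150026678-150026927, minus strand). Ndufa11 and Atp5mg were chosen after their values were seen.
Sdhd: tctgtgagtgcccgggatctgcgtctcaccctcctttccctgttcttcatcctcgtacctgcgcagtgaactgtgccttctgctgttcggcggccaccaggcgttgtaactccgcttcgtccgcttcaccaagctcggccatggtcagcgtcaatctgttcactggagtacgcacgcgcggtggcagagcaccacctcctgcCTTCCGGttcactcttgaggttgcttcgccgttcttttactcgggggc
Ndufa11: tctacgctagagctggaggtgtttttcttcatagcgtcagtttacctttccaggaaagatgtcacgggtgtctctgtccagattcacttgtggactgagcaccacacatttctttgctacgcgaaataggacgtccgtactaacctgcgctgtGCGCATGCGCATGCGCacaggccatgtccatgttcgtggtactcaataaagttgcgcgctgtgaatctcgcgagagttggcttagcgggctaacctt
Atp5mg: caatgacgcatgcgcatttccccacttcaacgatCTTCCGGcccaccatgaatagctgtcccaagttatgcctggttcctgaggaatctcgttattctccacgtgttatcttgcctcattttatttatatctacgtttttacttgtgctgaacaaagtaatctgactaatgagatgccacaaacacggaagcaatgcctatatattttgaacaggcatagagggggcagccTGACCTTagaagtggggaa
Ndufb10: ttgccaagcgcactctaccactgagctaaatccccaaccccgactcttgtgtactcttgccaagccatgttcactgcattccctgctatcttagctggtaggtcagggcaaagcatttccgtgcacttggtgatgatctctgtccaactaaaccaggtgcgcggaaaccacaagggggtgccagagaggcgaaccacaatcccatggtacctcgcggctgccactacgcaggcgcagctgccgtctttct
Atp5if1: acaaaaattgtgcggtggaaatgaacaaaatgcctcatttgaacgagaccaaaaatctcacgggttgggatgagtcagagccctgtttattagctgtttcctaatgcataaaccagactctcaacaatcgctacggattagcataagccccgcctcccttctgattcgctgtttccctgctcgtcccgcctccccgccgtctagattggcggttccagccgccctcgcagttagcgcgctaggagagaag

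At 24 h, transcripts of all 5 complexes fell in hearts given colchicine 2 mg/kg. Of the 85 tested genes, 72 fell and 1 rose (limma, Benjamini-Hochberg adjusted p under 0.05), while of all 11323 genes tested 25.3% fell and 19.3% rose. The falls were small. The median log2 difference from vehicle over the 85 genes was -0.24, a level 15.6% lower, against a median of 0 over all genes tested. Vincristine 1 mg/kg gave 50 falls and 1 rise, against 18.4% of all genes falling and 12% rising, with a median log2 difference of -0.17 against -0.01 over all genes. Vinblastine 3 mg/kg gave 4 falls and 1 rise, against 4.28% of all genes falling and 5.29% rising, with a median of -0.06 against -0.01. The vinblastine count of 5 was 24 with array weights estimated from the data, 12 without the 10 arrays nearer another group and 9 after quantile normalization. It was 2 to 7 when 1 array was left out, with 3 calls without vehicle replicate 2 or 5 and 2 without vehicle replicate 3 or vinblastine replicate 5. In whole-heart RNA, fewer cells of a type and less RNA per cell cannot be told apart.

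The individual hearts show how even the shift was. In each heart, the median log2 difference of the 85 genes from the vehicle mean of the same time was taken. In the 6 hearts given vinblastine 3 mg/kg it ranged from -0.15 to 0.06 with a median of -0.10. In those given vincristine 1 mg/kg it ranged from -0.28 to -0.11 with a median of -0.17. In those given colchicine 2 mg/kg the values were -0.03 for replicate 1 and -0.16, -0.42, -0.26, -0.30 and -0.42 for the others. Vehicle hearts at 24 h ranged from -0.10 to 0.12. Every vincristine heart lay below the lowest vehicle heart of 24 h, whereas 1 colchicine heart lay among the vehicle hearts. Between 71 and 82 of the 85 genes lay under the vehicle mean in each vincristine heart and between 61 and 82 in each colchicine heart, against 5 to 78 in the vehicle hearts of 24 h. Shifts of a like size were also seen in single hearts without a higher dose at 6 h, where a vehicle heart had a median of -0.21 against its own group's mean, with 81 of the 85 genes below that mean, and a vincristine 0.1 mg/kg heart had -0.14. Leaving out colchicine replicate 1 gave 75 falls and 2 rises with a median of -0.29.

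**Figure D1:**
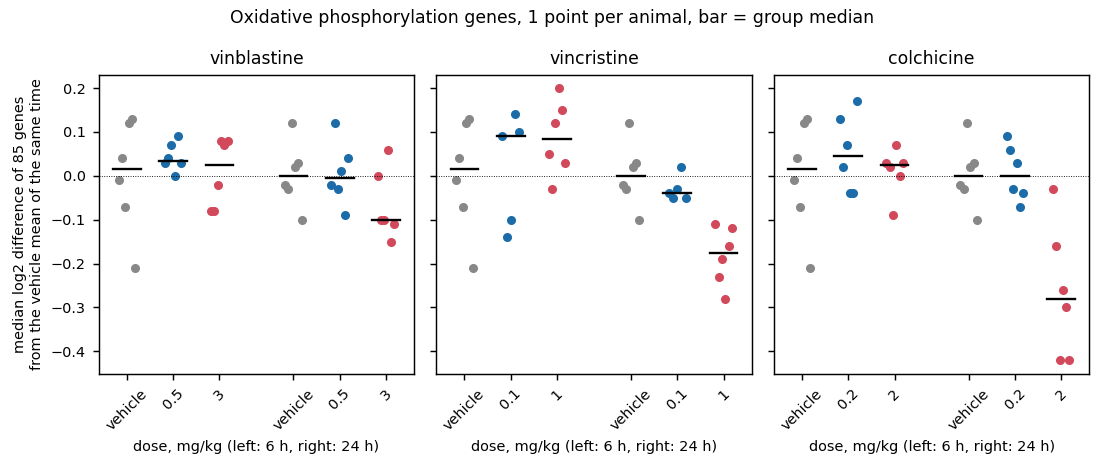
Median log2 difference of 85 oxidative phosphorylation genes from the vehicle mean of the same time (vertical axis), with 1 point per heart and a bar at each group's median, in 1 panel per compound with doses from vehicle upward at 6 h and then 24 h. The higher doses of vincristine and colchicine at 24 h lie lowest, with medians of -0.17 and -0.28, and 1 colchicine heart at -0.03 lies among the vehicle hearts.

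The complexes did not shift by the same amount. With colchicine 2 mg/kg at 24 h, 32 of 35 complex I genes fell (median log2 difference -0.34), as did all 4 complex II genes (-0.37) and all 8 complex III genes (-0.21). In complex IV 9 of 15 tested genes fell (-0.18), in complex V 13 of 16 (-0.19) and in the assembly group 6 of 7 (-0.46), where the remaining gene rose. With vincristine 1 mg/kg, 27 genes of complex I (-0.26), 3 of complex II (-0.26), 3 of complex III (-0.14), 6 of complex IV (-0.11), 6 of complex V (-0.11) and 5 of the assembly group (-0.41) fell. With vinblastine 3 mg/kg the medians were -0.12, -0.13, -0.07, -0.01 and -0.02 for complexes I to V in order and -0.15 for the assembly group. The difference between complexes was not tested.

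**Figure D2:**
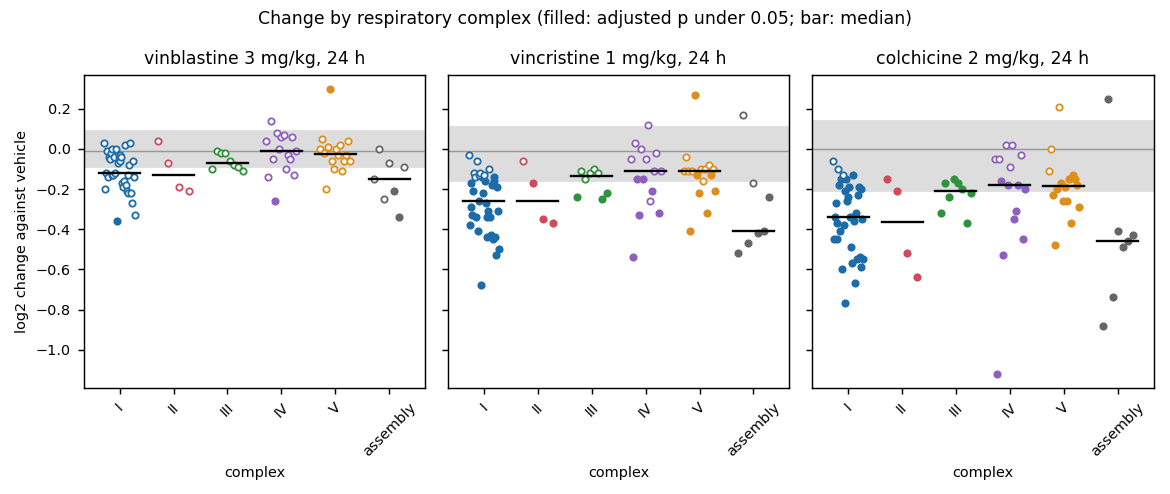
Log2 difference from vehicle at 24 h (vertical axis) for each of 85 genes, by complex, in 1 panel each for vinblastine 3 mg/kg, vincristine 1 mg/kg and colchicine 2 mg/kg; filled points passed an adjusted p of 0.05 (limma), bars are medians and the grey band runs from the lower to the upper quartile of all genes tested. Complex I medians were -0.12, -0.26 and -0.34 in that order of panels, and complex IV medians were -0.01, -0.11 and -0.18.

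Complex I takes electrons from NADH. Its accessory subunit Ndufb10, which sits in the membrane arm, had the largest fall in the complex. Its lowest, median and highest intensities were 2720, 3040 and 3650 with vinblastine 3 mg/kg, 2320, 2490 and 2790 with vincristine 1 mg/kg, and 1740, 2260 and 3870 with colchicine 2 mg/kg, against 3540, 3950 and 4750 with vehicle. The vincristine hearts lay wholly below the vehicle hearts, while the vinblastine and colchicine groups each overlapped them. The log2 differences were -0.36 ± 0.10 for vinblastine (SE, adjusted p 0.0162), -0.68 ± 0.10 for vincristine (adjusted p 3.55e-07) and -0.77 ± 0.10 for colchicine (adjusted p 4.48e-09), with 6 hearts in every group. Ndufb10 was the 1 subunit gene of complex I to pass the threshold with all 3 compounds. Without vehicle replicate 3 or vinblastine replicate 5 the vinblastine call was lost.

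Ndufc2 and Ndufa8, accessory subunits that help build the arms of complex I, followed the same order. Ndufc2 had lowest, median and highest intensities of 4320, 5020 and 5690 with vinblastine, 3800, 4400 and 4700 with vincristine and 2550, 3670 and 5960 with colchicine, against 5290, 5890 and 6170 with vehicle. Ndufa8 had 5340, 5640 and 5800 with vinblastine, 4070, 4680 and 5250 with vincristine and 3220, 3940 and 6070 with colchicine, against 5640, 6260 and 6560 with vehicle. For both genes the vincristine hearts lay below all vehicle hearts and 1 colchicine heart lay among them. Ndufc2 fell by 0.43 on the log2 scale with vincristine (adjusted p 0.000208) and by 0.67 with colchicine (adjusted p 1.28e-08). Ndufa8 fell by 0.41 with vincristine (adjusted p 0.000169) and by 0.60 with colchicine (adjusted p 3.12e-08). With vinblastine their log2 differences were -0.21 and -0.13, neither of which passed the threshold.

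Core subunits that carry electrons from NADH fell too. Ndufv1, Ndufs1 and Ndufs8 are given here, and others, such as Ndufs3, Ndufs7 and Ndufv2, are not. Ndufb10, Ndufc2 and Ndufa8 were picked for their small adjusted p, so their differences are no yardstick for the core subunits. Ndufv1, which binds NADH and FMN, fell by 0.19 on the log2 scale with vincristine (adjusted p 0.0239) and by 0.20 with colchicine (adjusted p 0.0127). Ndufs1, the largest iron-sulphur subunit, fell by 0.18 with vincristine (adjusted p 0.0351) and by 0.32 with colchicine (adjusted p 7.84e-05). Ndufs8, an iron-sulphur subunit close to the ubiquinone site, fell by 0.53 with vincristine (adjusted p 7.09e-05) and by 0.59 with colchicine (adjusted p 5.25e-06). The accessory subunit Ndufb7 fell by 0.44 with vincristine (adjusted p 0.000147) and by 0.57 with colchicine (adjusted p 4.78e-07). None of Ndufv1, Ndufs1, Ndufs8 and Ndufb7 passed with vinblastine, where their log2 differences lay between -0.27 and -0.06. Ndufa4, Ndufa1 and Ndufa9 passed in none of these 24 h comparisons, and Ndufa1 and Ndufa9 were singled out after their values were seen. Ndufa4 had log2 differences of -0.05 with vinblastine, -0.12 with vincristine and -0.10 with colchicine. The dimmer probe set of Ndufa9 fell by 0.47 with colchicine (adjusted p 0.000375 in a fit over 20540 probe sets), so the probe sets of that gene disagreed.

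Complex II also works in the citric acid cycle. Its membrane anchors had larger differences than its catalytic subunits in these arrays. The anchor Sdhd had lowest, median and highest intensities of 6260, 6440 and 6720 with vinblastine 3 mg/kg, 5170, 5890 and 6300 with vincristine 1 mg/kg and 3650, 4770 and 7260 with colchicine 2 mg/kg, against 7070, 7480 and 7910 with vehicle. All vinblastine and all vincristine hearts lay below the vehicle range, and 1 colchicine heart lay inside it. The log2 differences of Sdhd were -0.21 with vinblastine (adjusted p 0.123), -0.37 with vincristine (adjusted p 0.00071) and -0.64 ± 0.09 with colchicine (SE, adjusted p 6.78e-09). The other anchor, Sdhc, had 6760, 6980 and 7780 with vinblastine, 5530, 6440 and 7040 with vincristine and 4240, 5770 and 8130 with colchicine, against 7730, 8080 and 8550 with vehicle. It fell by 0.35 on the log2 scale with vincristine (adjusted p 0.000741) and by 0.52 with colchicine (adjusted p 3.47e-07), and differed by -0.19 with vinblastine without passing. Sdhb, the iron-sulphur subunit, fell by 0.17 with vincristine (adjusted p 0.012) and by 0.21 with colchicine (adjusted p 0.000873). Sdha, the flavin subunit that oxidises succinate, fell by 0.15 with colchicine (adjusted p 0.0307) and had a log2 difference of -0.06 with vincristine and of 0.04 with vinblastine, neither of which passed. The difference between anchors and catalytic subunits was not tested.

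In complex III all 8 genes fell with colchicine, each by a small amount. Uqcrh, the hinge protein that helps cytochrome c dock, had lowest, median and highest intensities of 8190, 8860 and 9660 with vinblastine, 7310, 8140 and 8260 with vincristine and 6180, 7080 and 9330 with colchicine, against 8030, 9510 and 10700 with vehicle. The groups overlapped in each comparison. Uqcrh fell by 0.25 on the log2 scale with vincristine (adjusted p 0.00225) and by 0.37 with colchicine (adjusted p 3.39e-06). Cyc1, the haem subunit that reduces cytochrome c, had 10700, 11200 and 11700 with vinblastine, 9370, 10000 and 11700 with vincristine and 8150, 9580 and 11500 with colchicine, against 10800, 12200 and 13100 with vehicle. It fell by 0.24 with vincristine (adjusted p 0.00164) and by 0.32 with colchicine (adjusted p 1.08e-05). Uqcr11, a small accessory subunit, fell by 0.24 with colchicine (adjusted p 0.00162), and Uqcrfs1, the Rieske iron-sulphur subunit, fell by 0.20 (adjusted p 0.00386). With vincristine the log2 differences of Uqcr11 and Uqcrfs1 were -0.15 and -0.12, neither of which passed.

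Complex IV held both the largest fall and 6 tested genes that fell with none of the compounds at 24 h. Among these 6 is Cox6c-ps1, which is named as a pseudogene and has a dim probe set (mean intensity 153). By the symbol rule it is counted in complex IV throughout. Cox4i2 is the less abundant isoform of subunit IV, known for its expression in lung and its response to low oxygen. Its lowest, median and highest intensities were 221, 302 and 404 with vinblastine, 172, 243 and 261 with vincristine and 106, 131 and 294 with colchicine, against 261, 336 and 442 with vehicle. It had a log2 difference of -0.14 with vinblastine (adjusted p 0.738), fell by 0.54 with vincristine (adjusted p 0.0188) and fell by 1.12 ± 0.18 with colchicine (SE, adjusted p 6.84e-07). The call for vincristine was lost without vehicle replicate 3 or without vincristine replicate 6. Cox4i1, the general isoform, had 16500, 19000 and 20600 with vinblastine, 16700, 17600 and 18400 with vincristine and 15700, 18100 and 18900 with colchicine, against 16500, 18400 and 19600 with vehicle. Its log2 differences were 0.04, -0.05 and -0.05 in that order of compounds, and none passed. The interval of the colchicine difference of Cox4i1 ran from -0.16 to 0.06 (95% confidence).

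The isoforms of subunit VIa also had unlike values, a difference that was not tested. Cox6a1, the isoform of most tissues, had lowest, median and highest intensities of 3540, 4210 and 4510 with vinblastine, 3590, 3900 and 4600 with vincristine and 2800, 3330 and 4750 with colchicine, against 4050, 5030 and 5440 with vehicle. It fell with all 3 compounds, by 0.26 on the log2 scale with vinblastine (adjusted p 0.031), 0.33 with vincristine (adjusted p 0.0013) and 0.53 with colchicine (adjusted p 2.26e-07). The vinblastine call of Cox6a1 was lost in 7 of the fits that left out 1 array. Cox6a2, the heart and skeletal muscle isoform, had 20000, 21100 and 22700 with vinblastine, 18300, 20600 and 20900 with vincristine and 18900, 20200 and 23100 with colchicine, against 19200, 20000 and 21900 with vehicle. None of its differences passed, and the interval for colchicine ran from -0.08 to 0.12 on the log2 scale. After quantile normalization Cox6a2 was instead higher by 0.11 with vinblastine, 0.11 with vincristine and 0.10 with colchicine, all past the threshold.

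For other isoforms the picture was mixed. Cox8a, the general isoform of subunit VIII, had lowest, median and highest intensities of 5060, 5880 and 6310 with vinblastine, 4800, 5070 and 5680 with vincristine and 4080, 4610 and 5710 with colchicine, against 5890, 6430 and 6730 with vehicle. Every vincristine and every colchicine heart lay below the vehicle range. It fell by 0.32 with vincristine (adjusted p 0.000422) and by 0.45 with colchicine (adjusted p 4.65e-07). The muscle isoform Cox8b fell by 0.20 with colchicine (adjusted p 0.00806), and its log2 difference with vincristine, -0.11, did not pass. Cox7a1, the muscle isoform of subunit VIIa, fell by 0.35 with colchicine (adjusted p 0.0146), a call lost without vehicle replicate 3, while Cox7a2l, which joins complexes III and IV in supercomplexes, fell by 0.21 with vincristine (adjusted p 0.00597) and by 0.31 with colchicine (adjusted p 1.56e-05). Cox6b1, the general isoform of subunit VIb, fell by 0.15 with vincristine (adjusted p 0.0445) and by 0.18 with colchicine (adjusted p 0.00998). Its testis isoform Cox6b2 was under the filter, so its differences were not tested.

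No change was called in the catalytic core of ATP synthase. Atp5f1b, the subunit that forms ATP, had lowest, median and highest intensities of 21900, 24100 and 25400 with vinblastine, 20900, 22600 and 23900 with vincristine and 20400, 22800 and 26100 with colchicine, against 21500, 23100 and 24600 with vehicle. Its colchicine difference was 0.00 on the log2 scale with an interval from -0.10 to 0.10. Atp5f1a, its partner in the catalytic ring, had log2 differences of 0.00 with vinblastine, -0.11 with vincristine and -0.11 with colchicine, none of which passed. The falls lay in other parts of the enzyme. Atp5f1d, a subunit of the central stalk, had 6800, 7390 and 8480 with vinblastine, 6000, 6260 and 7450 with vincristine and 4560, 6260 and 8770 with colchicine, against 8020, 8500 and 9420 with vehicle. It fell by 0.41 with vincristine (adjusted p 0.000188) and by 0.48 with colchicine (adjusted p 6.7e-06). Atp5mpl, a small membrane subunit, fell by 0.32 with vincristine (adjusted p 0.00017) and by 0.37 with colchicine (adjusted p 6.01e-06), and Atp5po, which links the peripheral stalk to the catalytic head, fell by 0.21 (adjusted p 0.00332) and by 0.29 (adjusted p 3.58e-05) with the same compounds. After quantile normalization Atp5f1b was higher with vincristine, by 0.14 on the log2 scale (adjusted p 5.89e-05).

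Atp5if1 ran the other way. It encodes the inhibitor that stops ATP synthase from running backward and hydrolysing ATP. Its lowest, median and highest intensities were 1510, 1810 and 1860 with vinblastine, 1580, 1670 and 2000 with vincristine and 1370, 1630 and 1870 with colchicine, against 1340, 1400 and 1520 with vehicle. The vincristine hearts lay above every vehicle heart, and the vinblastine and colchicine hearts overlapped the vehicle range. It rose by 0.30 on the log2 scale with vinblastine (adjusted p 0.0217) and by 0.27 with vincristine (adjusted p 0.021), and the colchicine difference of 0.21 missed the threshold (adjusted p 0.0533). The vinblastine call was lost without vehicle replicate 5 and the vincristine call without vincristine replicate 5, while the colchicine difference passed in 11 of 23 alternative settings, among them the fit without colchicine replicate 1 (0.26). Among the further probe sets of these genes, a second one of Atp5if1 included, none rose past the threshold with vinblastine or vincristine.

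**Figure D3:**
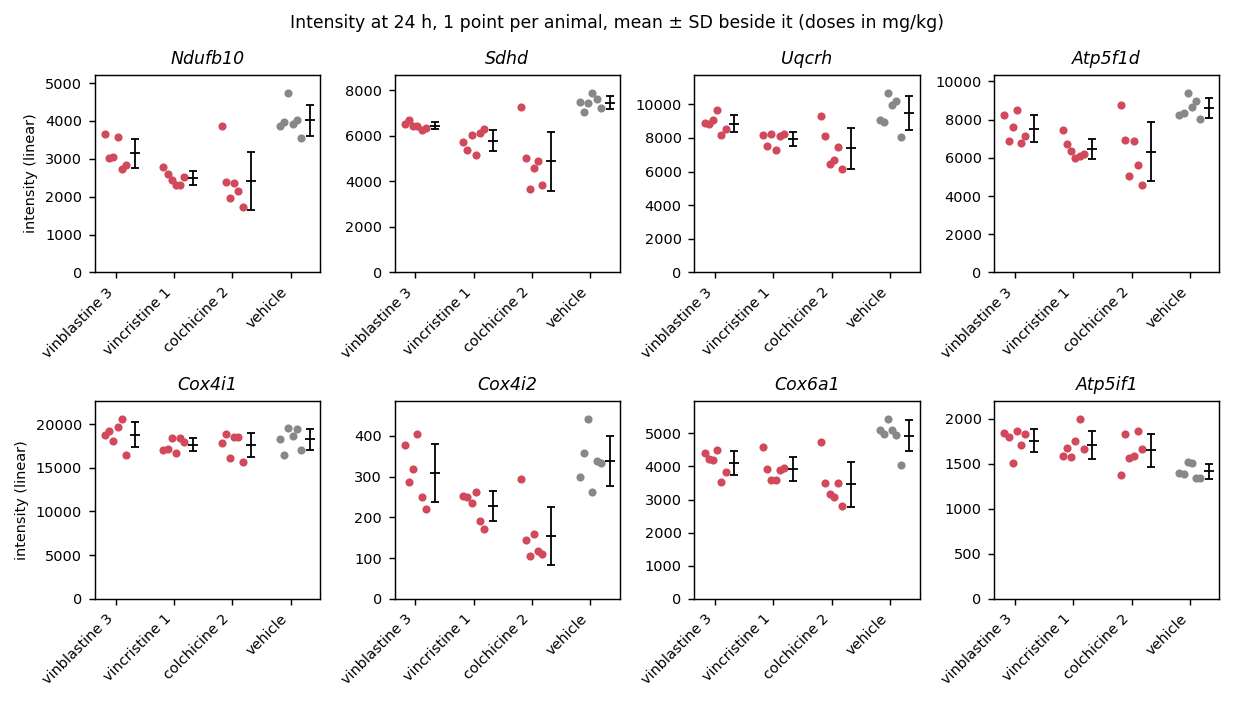
Intensity in each heart at 24 h (vertical axis, linear from 0) for 8 genes, with points for hearts and bars for mean and SD, for vinblastine 3 mg/kg, vincristine 1 mg/kg, colchicine 2 mg/kg and vehicle from left to right. Cox4i2 averaged 155 ± 71.1 with colchicine and 339 ± 61 with vehicle, and Atp5if1 averaged 1650 ± 184 with colchicine and 1420 ± 82.7 with vehicle (SD, n = 6 each).

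In the assembly group, most genes fell by more than the median subunit. Ndufaf3, an assembly factor for the arm of complex I that meets ubiquinone, had lowest, median and highest intensities of 1090, 1220 and 1400 with vinblastine, 978, 1060 and 1110 with vincristine and 723, 800 and 1390 with colchicine, against 1340, 1470 and 1610 with vehicle. It fell by 0.47 with vincristine (adjusted p 1.63e-05) and by 0.74 with colchicine (adjusted p 2.29e-10). Ndufaf7, a methyltransferase that modifies a core subunit during assembly, fell with all 3 compounds, by 0.34 with vinblastine (adjusted p 0.000705), 0.41 with vincristine (adjusted p 8.8e-06) and 0.46 with colchicine (adjusted p 2.08e-07). Ndufaf5, another enzyme of the assembly line, fell with all 3 as well, by 0.21 (adjusted p 0.0338), 0.42 (adjusted p 7.29e-07) and 0.49 (adjusted p 8.98e-09) in that order, and was named after its values were seen. Ndufa4l2, a relative of Ndufa4 known for its induction by low oxygen, fell by 0.52 with vincristine (adjusted p 0.00445) and by 0.88 with colchicine (adjusted p 8e-07). Its lowest, median and highest intensities were 122, 151 and 174 with vincristine and 88, 103 and 196 with colchicine, against 198, 217 and 260 with vehicle, without overlap in either case. Ndufaf1, an early assembly factor, was the 1 gene to rise with colchicine, by 0.25 (adjusted p 0.00732), and it too was named after its values were seen.

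Across the 3 compounds at 24 h, 4 of the 85 genes fell with all of them (Ndufb10, Cox6a1, Ndufaf5 and Ndufaf7), 46 fell with 2 of them, 22 with 1 and 13 with none. The 4 were also all the falls called with vinblastine. Of all genes tested, 4.28% fell with vinblastine, 18.4% with vincristine and 25.3% with colchicine. The shares of all genes that fell with all 3, with 2, with 1 or with none were not counted. Whether these counts are particular to the 85 genes therefore cannot be read from them. The comparisons share their vehicle hearts, so these counts are not independent of each other. The 13 were Ndufa1, Ndufa4, Ndufa9, Cox4i1, Cox5a, Cox6a2, Cox6c, Cox6c-ps1, Cox7c, Atp5f1a, Atp5f1b, Atp5if1 and Ndufaf1. Counting genes whose 6 treated hearts all lay below the lowest vehicle heart gave 3 with vinblastine (2.64% of all genes), 29 with vincristine (11.8%) and 4 with colchicine (4.48%), and 1 gene lay wholly above with vincristine (8.33% of all genes), namely Atp5if1. The colchicine count, near the share for all genes, includes replicate 1, whose median difference was -0.03.

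**Figure D4:**
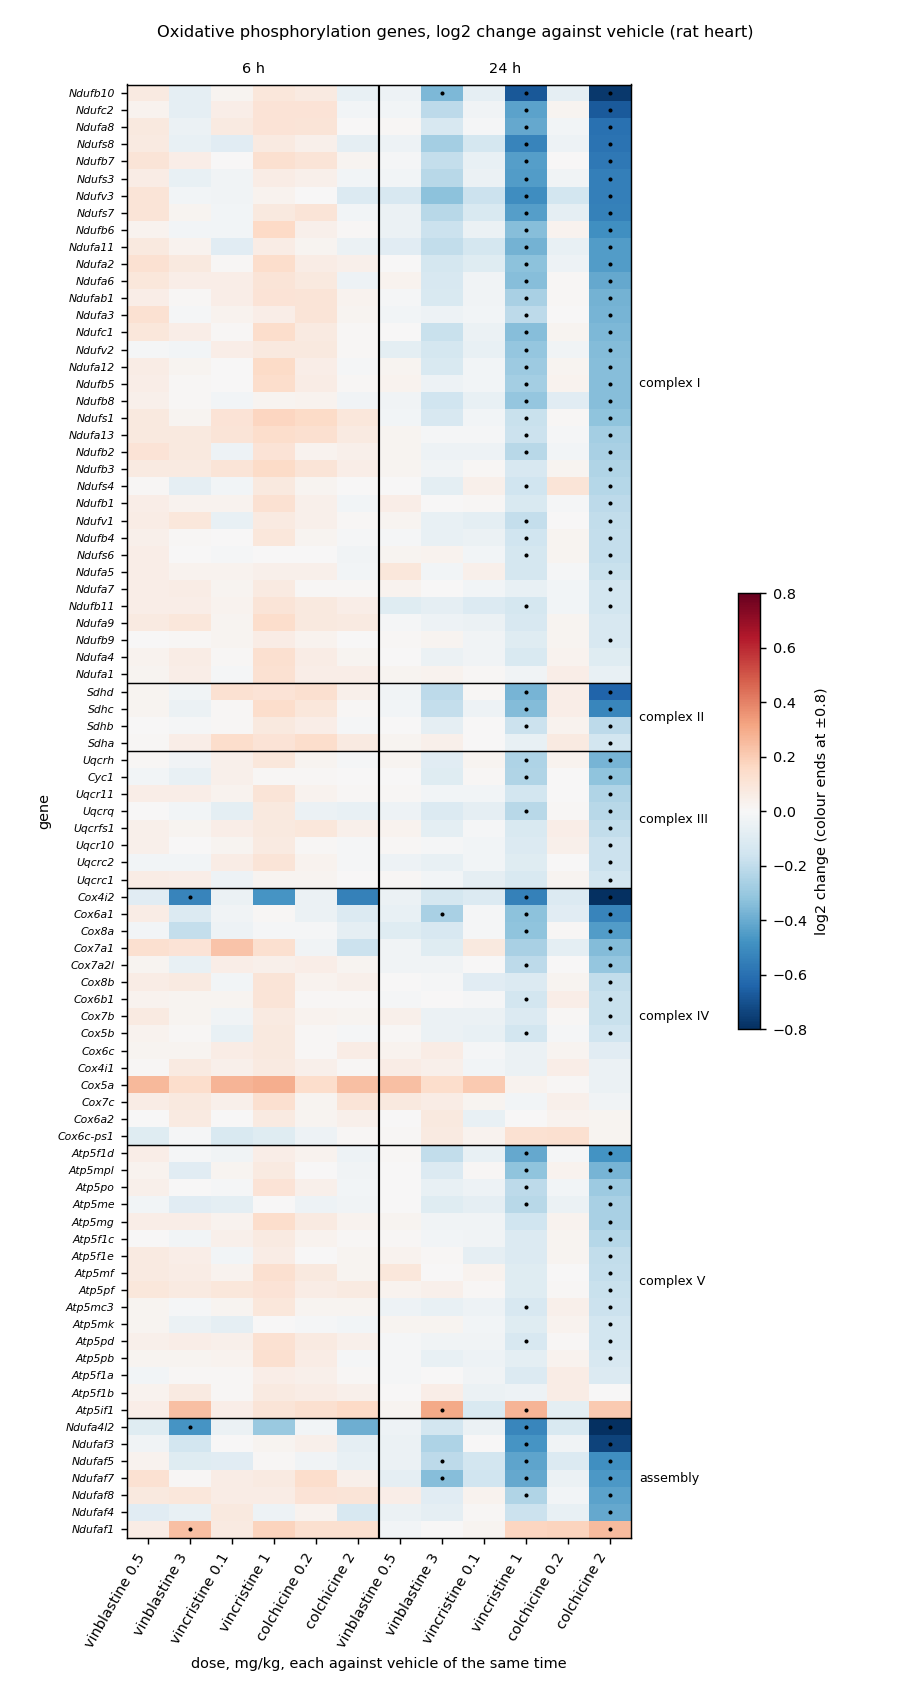
Log2 difference from vehicle (colour, with scale ends at -0.8 and 0.8) for 85 genes grouped by complex, in 12 comparisons of a dose with vehicle at 6 h and 24 h; a dot marks an adjusted p under 0.05 (limma). Dots are dense only in the columns of vincristine 1 mg/kg and colchicine 2 mg/kg at 24 h, with 51 and 73 of 85 genes.

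The fall was seen at the higher dose. At the lower doses no gene of the 85 passed at 6 h or at 24 h (limma), with 1, 1 and 3 genes at an unadjusted p under 0.05 at 6 h and 0, 3 and 1 at 24 h for vinblastine 0.5, vincristine 0.1 and colchicine 0.2 mg/kg in that order. Of all genes tested, 5.22%, 3.89% and 6.69% had such an unadjusted p at 6 h and 2%, 2.79% and 2.55% at 24 h in the same order. Of all genes tested, 0.0353% passed with vinblastine 0.5 mg/kg and 0.274% with colchicine 0.2 mg/kg at 6 h, and 0% passed in the other 4 lower-dose comparisons. Ndufb10 at 24 h had lowest, median and highest intensities of 3350, 3880 and 4410 with vinblastine 0.5 mg/kg, 3680, 3810 and 3900 with vincristine 0.1 mg/kg and 3300, 3910 and 4110 with colchicine 0.2 mg/kg, against 3540, 3950 and 4750 with vehicle. Sdhd had 6600, 7390 and 7670, then 7090, 7580 and 7770, then 7280, 7590 and 8330 in those lower-dose groups, against 7070, 7480 and 7910 with vehicle. These values overlap the vehicle range throughout.

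Setting the higher against the lower dose of each compound at 24 h tested the dose directly. Colchicine 2 against 0.2 mg/kg gave 73 falls and 1 rise among the 85 genes (22.6% of all genes fell and 18.8% rose), with a median of -0.25. Vincristine 1 against 0.1 mg/kg gave 34 falls and 1 rise (11.6% and 12.3% of all genes), with a median of -0.17. Vinblastine 3 against 0.5 mg/kg gave 1 fall (1.56% of all genes fell), that of Ndufaf7, with 184 ± 16.7 at 3 mg/kg and 225 ± 15.9 at 0.5 mg/kg (SD, n = 6 each, log2 difference -0.27, adjusted p 0.0142). That count was 18 with array weights and 6 without the 10 arrays, and it was 0 without vinblastine 3 mg/kg replicate 5 and 2 without replicate 1, 3 or 4 of that group or replicate 2 or 5 of the lower dose. Ndufb10 fell by 0.61 between the vincristine doses (adjusted p 1.57e-05), with 2500 ± 180 at 1 mg/kg (n = 6) and 3810 ± 84.2 at 0.1 mg/kg (n = 5), and by 0.70 between the colchicine doses (adjusted p 6.06e-08). Cox4i2 fell by 1.01 between the colchicine doses (adjusted p 6.91e-06). Atp5if1 was the gene that rose, by 0.38 between the vincristine doses (adjusted p 0.00201) and by 0.29 between the colchicine doses (adjusted p 0.00656). At 6 h no gene of the 85 passed between doses of any compound, against 8.52% of all genes for vinblastine, 2.81% for vincristine and 9.23% for colchicine. At an unadjusted p under 0.05 there were 7, 6 and 2 of the 85, against 25.1%, 17% and 20.6% of all genes in that order.

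At 6 h the 85 genes were close to vehicle. Vinblastine 3 mg/kg gave 2 falls and 1 rise, against 7.67% of all genes falling and 15.7% rising, and the median log2 difference was 0.01. Vincristine 1 mg/kg gave none (3.3% of all genes passed, and 19 of the 85, or 22.4%, had an unadjusted p under 0.05, against 18.6% of all genes), with a median of 0.08, and colchicine 2 mg/kg gave none (9.26% of all genes, and 2 of the 85, or 2.35%, unadjusted, against 21.8% of all genes), with a median of 0.01. The 2 falls with vinblastine were in Cox4i2 and Ndufa4l2, the dim genes with large falls at 24 h after colchicine. Cox4i2 had lowest, median and highest intensities of 109, 209 and 276 with vinblastine 3 mg/kg, 150, 198 and 391 with vincristine 1 mg/kg and 160, 186 and 344 with colchicine 2 mg/kg, against 243, 312 and 346 with vehicle. It fell by 0.53 ± 0.18 with vinblastine (SE, adjusted p 0.028), and the log2 differences of -0.47 with vincristine (adjusted p 0.138) and -0.54 with colchicine (adjusted p 0.05) did not pass. Ndufa4l2 fell by 0.47 with vinblastine (adjusted p 0.0143), with 54.9, 173 and 187 against 165, 213 and 224 with vehicle. Ndufaf1 rose by 0.24 (adjusted p 0.0169). Replicate 1 of this vinblastine group held the lowest Cox4i2 value, and without it none of the 85 genes passed.

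The change between the times was tested for each compound as the difference from vehicle at 24 h minus that at 6 h. It was negative past the threshold for 46 genes with vincristine 1 mg/kg (8.73% of all genes), for 43 with colchicine 2 mg/kg (12.6%) and for 1 with vinblastine 3 mg/kg (2.66%), with medians of -0.25, -0.25 and -0.07. The vincristine count was 17 after quantile normalization (2 up, 15 down) and 29 without vehicle replicate 6 of the 6 h group, and the colchicine count was 23 when only the compared groups were fitted. The vinblastine count of 1 ran from 0 to 7 over the alternative settings and was 0 without vinblastine replicate 2 or 5 or vehicle replicate 1 or 3 at 24 h, or without vinblastine replicate 4 or 5 or vehicle replicate 2, 3 or 6 at 6 h. Ndufb10 had a difference of -0.77 with vincristine (adjusted p 0.000262) and -0.71 with colchicine (adjusted p 0.000269). At 6 h Ndufb10 had averaged 3780 ± 513 with vincristine and 3390 ± 232 with colchicine, against 3560 ± 506 with vehicle (SD, n = 6 each). Sdhd had -0.69 and Ndufaf3 -0.67 with colchicine, while Ndufs8 had -0.61 and Ndufb7 -0.57 with vincristine. Cox4i2 did not pass with either compound, at -0.07 with vincristine and -0.58 with colchicine. Vehicle hearts at 24 h against those at 6 h gave no call among the 85 genes (limma, 0.00883% of all genes, 13 of the 85, or 15.3%, unadjusted, against 12.6% of all genes), with a median of 0.09.

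Dimmer probe sets had larger differences. Over the 85 probe sets, Spearman's rho between mean intensity and log2 difference at 24 h was 0.48 for vinblastine 3 mg/kg, 0.52 for vincristine 1 mg/kg and 0.54 for colchicine 2 mg/kg, and Pearson's r on the log2 intensity was 0.22, 0.19 and 0.29 in that order. Both are given as a description because the points share the same arrays. With colchicine the 43 dimmer probe sets had a median of -0.43 with 39 falls, and the 42 brighter ones had a median of -0.18 with 33 falls. Among the 32 probe sets over 10000 the lowest difference was -0.34. The median intensity of the probe sets was 6080 for complex I, 8230 for complex II, 11500 for complex III, 11000 for complex IV, 12300 for complex V and 210 for the assembly group. Intensities of different probe sets do not compare transcript levels, and the part of signal range in the order of the complexes was not tested.

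**Figure D5:**
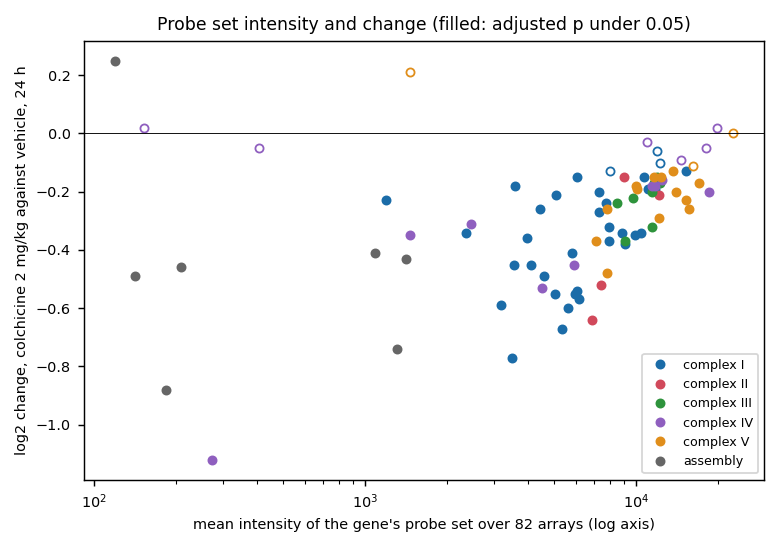
Log2 difference from vehicle at 24 h with colchicine 2 mg/kg (vertical axis) against mean intensity of the probe set over 82 arrays (horizontal axis, log scale), with 1 point per gene coloured by complex. Points under an intensity of 10000 spread down to -1.12 (Cox4i2), and no point over 10000 lies under -0.34.

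Probe sets outside the choice were also read. Members had 10 further probe sets, of which 8 were tested, and with colchicine 2 mg/kg at 24 h 4 of these fell and 1 rose, which was a second probe set of Atp5if1 (0.26, adjusted p 0.0149). None of the 8 rose past the threshold with vinblastine 3 mg/kg or vincristine 1 mg/kg at 24 h, where 0 and 3 fell. The sign matched that of the gene's chosen probe set for 6, 7 and 6 of the 8 with vinblastine, vincristine and colchicine. No share over all 20540 probe sets is given for these or the following counts. The 9 probe sets annotated to several symbols, among them the one that lists Cycs, gave 8 falls with colchicine (median -0.28), 6 with vincristine (-0.19) and none with vinblastine (-0.07) at 24 h in the fit over probe sets. Probe sets for the mitochondrially encoded subunits of complex IV, COX1 and COX2, were looked at after the other values were seen. COX1 had log2 differences of -0.13, -0.31 and -0.28 ± 0.23 (adjusted p 0.342) and COX2 of -0.01, -0.10 and -0.06 ± 0.07 (adjusted p 0.464) for vinblastine, vincristine and colchicine at 24 h (SE for colchicine), and neither passed in any of 12 comparisons with vehicle.

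The genes with and without each promoter motif are set side by side here. With colchicine at 24 h the 21 tested genes with the ETS motif had a median of -0.26 and 18 falls, and the 55 without it had -0.23 and 47 falls. The 12 with the nuclear respiratory factor motif had -0.32 and all fell, and the 64 without it had -0.23 and 53 falls. The 6 with the oestrogen-related receptor motif had -0.21 and 5 falls, and the 70 without it had -0.26 and 60 falls. These are counts without a test.

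Genes that serve the pathway from outside the symbol rule gave falls in the same hearts, by lists of textbook membership. Among all genes tested at 24 h, 4.28% fell with vinblastine 3 mg/kg, 18.4% with vincristine 1 mg/kg and 25.3% with colchicine 2 mg/kg. Rises made up 5.29%, 12% and 19.3% in that order. Of 38 tested assembly factors with other names, 3 fell and 1 rose with vinblastine 3 mg/kg, 22 fell and 2 rose with vincristine 1 mg/kg, and 27 fell and 2 rose with colchicine 2 mg/kg at 24 h, with medians of -0.13, -0.23 and -0.33. Cox10, which makes the haem of complex IV, fell by 1.05 with colchicine (adjusted p 7.91e-09), and Uqcc1, a complex III assembly factor, fell by 1.02 (adjusted p 2.62e-09). Acad9, a complex I assembly factor that also oxidises fatty acids, rose by 0.97 (adjusted p 1.21e-07). Of 73 mitochondrial ribosomal protein genes, 21 fell and 1 rose with vinblastine, 55 fell and 1 rose with vincristine and 64 fell with colchicine, with medians of -0.20, -0.26 and -0.39. Mrpl12, which also binds mitochondrial RNA polymerase, fell by 0.40 with vinblastine (adjusted p 0.0297) and by 1.03 with colchicine (adjusted p 6.78e-10). Of 15 citric acid cycle genes 1, 8 and 11 fell in that order, of 15 carriers and porins 2, 11 and 13, and of 12 coenzyme Q genes 2, 7 and 9, where 1 rose with vincristine and 2 with colchicine. Ogdh, a citric acid cycle dehydrogenase, fell by 0.60 with colchicine (adjusted p 1.15e-07). Slc25a4, the muscle ADP/ATP carrier, had a log2 difference of 0.06 and did not pass. Coq5, a methyltransferase of coenzyme Q synthesis, fell by 0.96 (adjusted p 3.42e-10), whereas Coq10b, which binds coenzyme Q, rose by 0.93.

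Transcriptional regulators of the pathway moved in both directions. Of 19 tested, 10 fell and 5 rose with colchicine 2 mg/kg at 24 h, 8 fell and 2 rose with vincristine 1 mg/kg, and 1 fell with vinblastine 3 mg/kg. Over all genes tested, 25.3% fell and 19.3% rose with colchicine, 18.4% and 12% with vincristine and 4.28% and 5.29% with vinblastine. Perm1, a muscle regulator that acts with the coactivators of the Ppargc1 family, had log2 differences of -0.42 (adjusted p 0.455), -1.52 (adjusted p 7.53e-05) and -2.79 ± 0.31 (SE, adjusted p 4.15e-11) for vinblastine, vincristine and colchicine. Esrra, the oestrogen-related receptor alpha, had -0.01, -0.29 (adjusted p 0.0124) and -0.56 (adjusted p 9.09e-07) in the same order. Ppargc1b, a coactivator of that receptor, fell with all 3, by 0.58 (adjusted p 0.0404), 0.82 (adjusted p 0.000597) and 1.23 (adjusted p 2.24e-07). Nrf1, which encodes nuclear respiratory factor 1, had 0.11 with colchicine and did not pass, while Pprc1, a relative of the Ppargc1 coactivators, rose by 0.92 (adjusted p 3.88e-06) and Tfam, the mitochondrial DNA packaging factor, rose by 0.24 (adjusted p 0.013). Among the 10 falls with colchicine were also Ppargc1a (-1.46), Esrrg (-0.78), Esrrb (-0.52) and Gabpa (-0.38). At 6 h with vinblastine 3 mg/kg, 6 of the 19 rose and 4 fell (median -0.01), with vincristine 1 mg/kg none passed and with colchicine 2 mg/kg 1 fell. Over all genes tested at 6 h, 15.7% rose and 7.67% fell with vinblastine, while 3.3% with vincristine and 9.26% with colchicine passed in either direction. Among those called with vinblastine at 6 h, Pprc1 rose by 0.84 and Tfam by 0.31, while Perm1 fell by 1.26 (adjusted p 0.00155) and Ppargc1b by 0.71 (adjusted p 0.0045), at a time when the 85 genes had a median of 0.01. Whether the regulators and the 85 genes are linked was not tested.

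Markers of the heart's cell types were read beside these results at 24 h. The shares of all genes tested that fell were 4.28% with vinblastine 3 mg/kg, 18.4% with vincristine 1 mg/kg and 25.3% with colchicine 2 mg/kg. Those that rose made up 5.29%, 12% and 19.3% in that order. Of 11 tested cardiomyocyte markers, none passed with vinblastine 3 mg/kg, 3 fell and 1 rose with vincristine 1 mg/kg and 4 fell and 1 rose with colchicine 2 mg/kg, and their summed intensity ranged over 203212 to 230886, 189458 to 210671 and 184316 to 230728, against 203814 to 237181 with vehicle. Fibroblast markers gave 2 rises with vinblastine, 1 rise and 3 falls with vincristine and 2 rises and 5 falls with colchicine among 7, with sums of 26086 to 32195, 22074 to 28839 and 19144 to 27893, against 28478 to 35753 with vehicle. Macrophage markers gave 5, 5 and 3 rises among 8, with 1 fall for colchicine, and sums of 2602 to 3932, 2209 to 3027 and 1417 to 2388, against 1644 to 1927 with vehicle. Endothelial markers gave 2 rises and 1 fall, 4 and 2, and 5 and 1 among 9, with sums of 7073 to 9783, 7993 to 9771 and 8131 to 10481, against 7244 to 9267 with vehicle. Of the neutrophil markers 2 could be tested, and both rose with vincristine and with colchicine, while Csf3r and Cxcr2, which define that cell, were under the filter. Erythroid markers fell in 3 of 3 tested with vinblastine and with vincristine and in 1 with colchicine. The part of cell makeup in the shift of the 85 genes was not tested.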

How the data were processed

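Total RNA of 82 whole hearts was extracted with RNeasy and labelled as biotin cRNA with an Affymetrix 3′ IVT kit, per the labels. The deposited values are linear intensities of 31099 probe sets, and how the authors summarised and scaled them is not given in the sources used here. GEO's platform annotation named 20826 probe sets with 1 symbol, 436 with several and 9780 with none, and 57 were controls. The probe set brightest on average stood for each of the 14217 symbols. The deposited intensities were turned to log2(intensity + 16) here, so a fold change of a dim gene is understated. Testing was limited to the 11323 genes whose intensity exceeded the array's 40th percentile in 5 or more hearts. A linear model with 14 group means was fitted with limma 3.58.1 in R 4.3.3 (68 residual degrees of freedom), giving 22 comparisons with Benjamini-Hochberg adjustment over all tested genes and a threshold of 0.05. Errors are standard errors of log2 differences or SDs of intensities. Arrays give no counts, so their number limits the precision.

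The genes and gene lists were chosen with earlier results of these data known. Named members were the largest rise and fall in each complex for each higher dose against vehicle, any call at a lower dose, the 3 largest rises and falls in other comparisons, and a set of isoform and regulator genes whatever their values. Up to 3 members per complex with the smallest adjusted p against vehicle were named as well, so these were picked by their results. Fits were tested on simulated data. Alternatives were offsets of 1 and 64, no filter and a 60th-percentile filter, the mean of a gene's probe sets, quantile normalization, array weights, a replicate block, the compared groups alone, and leaving out arrays. Nothing shows that same-numbered animals were paired. The labels give 1 animal per array and no batch, and the meaning of a _2 that ends 6 array descriptions is not stated. Promoters came from RefSeq's table for GRCr8.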

Additional observations from a re-analysis of the deposited data

Results flagged for a closer look

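Replicate 1 of colchicine 2 mg/kg at 24 h stood far above the other 5 hearts of its group for 6 genes. Its intensity was 3870 for Ndufb10 (others 1740 to 2400), 6070 for Ndufa8 (others 3220 to 4090), 4750 for Cox6a1 (others 2800 to 3500), 294 for Cox4i2 (others 106 to 158), 7510 for Atp5mpl (others 4930 to 5850) and 196 for Ndufa4l2 (others 88 to 108). In all but Ndufa4l2 this heart lay within the vehicle range of 24 h. Without it, Ndufb10 fell by 0.92 on the log2 scale, Cox4i2 by 1.31 and Ndufa4l2 by 1.03.

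Among vehicle hearts at 24 h, replicate 6 had 4050 for Cox6a1 (others 4940 to 5440) and replicate 3 had 21900 for Cox6a2 (others 19200 to 20200). In the vincristine 0.1 mg/kg group at 24 h, replicate 4 had a median difference over the 85 genes of 0.02 (others -0.05 to -0.03). Chance alone marks about 1 in 20 groups in this way, and 56 groups of values were looked at, of which 9 were marked. Most of these groups were 21 genes read on the same arrays, and most marks fell on 1 heart, colchicine replicate 1. The groups are therefore not independent, and the count of marks cannot be set against that rate.

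For some genes the difference from vehicle depended on the time after the dose, by a test of the change at 24 h minus that at 6 h. With vinblastine 3 mg/kg it differed for 1 gene, Ndufaf7 (-0.35), against 2.66% of all genes lower by this test. With vincristine 1 mg/kg it differed for 46 genes (8.73% of all genes lower), led by Ndufb10 (-0.77), Ndufs8 (-0.61) and Ndufb7 (-0.57). With colchicine 2 mg/kg it differed for 43 genes (12.6% of all genes lower), led by Ndufb10 (-0.71), Sdhd (-0.69) and Ndufaf3 (-0.67). Leaving out 1 array gave counts of 0 to 2, 29 to 56 and 34 to 59 in that order. Other settings, given below, lowered the vincristine and colchicine counts further.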

How the results depend on the processing

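Over all alternatives, which gave 274 medians, each of the 12 medians of the genes against vehicle moved by less than the spread between hearts. Direction was not part of this check, and the spread was larger than several of the medians. Leaving out 1 array gave -0.02 to 0.04 for vinblastine 3 mg/kg and -0.04 to 0.03 for colchicine 2 mg/kg at 6 h. At 24 h it gave -0.08 to -0.04, -0.2 to -0.15 and -0.29 to -0.21 for the higher doses of vinblastine, vincristine and colchicine. At 24 h the counts with main values of 73 (colchicine 2 mg/kg) and 51 (vincristine 1 mg/kg) stayed within 1.5 times under every alternative run. The count of 5 for vinblastine 3 mg/kg at 24 h was 24 with array weights, 9 after quantile normalization (3 up, 6 down) and 12 without the 10 arrays nearer another group, and its count of 3 at 6 h was 1, 5, 5, 0, 19, 5, 0 and 1 with array weights, the 60th-percentile filter, offset 64, the compared groups alone, quantile normalization, the replicate block, without the _2 arrays and without the 10 arrays. Counts of 0 at 6 h became, for colchicine 2 mg/kg, 3 with array weights, 2 without the 10 arrays and 1 with the 60th-percentile filter, the compared groups alone, quantile normalization, the replicate block or without the _2 arrays, and for vincristine 1 mg/kg 2 without the 10 arrays. Between doses at 6 h, 0 became 9 for vinblastine after quantile normalization, 2 for vincristine without the 10 arrays, and for colchicine 3 with array weights, 1 after quantile normalization, 1 without the _2 arrays and 2 without the 10 arrays. Between doses at 24 h, 1 for vinblastine became 18 with array weights, 6 without the 10 arrays, 3 with the 60th-percentile filter, quantile normalization or without the _2 arrays and 2 with offset 64 or the replicate block, and 35 for vincristine became 56 with array weights. For the change between times, 43 for colchicine became 23 with the compared groups alone, 46 for vincristine became 17 after quantile normalization (2 up, 15 down), and 1 for vinblastine became 7 with array weights, 2 after quantile normalization or without the 10 arrays and 0 with the mean of probe sets or the compared groups alone. Leaving out 1 array at a time gave 61 to 77 (colchicine), 39 to 55 (vincristine) and 2 to 7 (vinblastine) at 24 h, 0 to 2, 0 to 1 and 0 to 5 at 6 h, and 0 at lower doses and between vehicle times. It gave 65 to 77, 30 to 37 and 0 to 2 between doses at 24 h, 0 to 2, 0 and 0 to 1 between doses at 6 h, and 34 to 59, 29 to 56 and 0 to 2 for the change between times. The vinblastine count at 24 h was 3 without vehicle replicate 2 or 5 and 2 without vehicle replicate 3 or vinblastine replicate 5. Under quantile normalization the log2 difference of Atp5f1a with vinblastine at 6 h was -0.09 (0.01 as deposited) and that of Atp5f1b with vincristine at 24 h was 0.14 (-0.04 as deposited), and the split of all genes with vincristine at 24 h was 1847 lower and 1843 higher, against 2081 and 1354 as deposited. The cause of these changes was not tested. Nothing showed that replicate numbers paired the animals. Of 104 same-numbered pairs, 28 correlated over 0.1 (r from -0.38 to 0.45), and in 0 of 18 comparisons did every pair do so. Such correlations cannot exclude pairing. With the replicate block the 24 h counts were 74 for colchicine and 51 for vincristine.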
